A study of Mus musculus with 16 samples.

Results

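Complement is a set of plasma and cell surface proteins that marks foreign or damaged material for removal. In the classical pathway, C1q binds antibody or other patterns on a surface and the proteases C1r and C1s that travel with it cleave C4, so that C3 is cut in turn, while the alternative pathway amplifies C3 cleavage with factor B. The liver makes most plasma complement, but macrophages are a known source of C1q and keratinocytes and fibroblasts can make other components in the skin. The 9 genes followed here are the chains of C1q (C1qa, C1qb and C1qc), the proteases C1ra and C1s1, the components C3, C4b and Cfb, and Serping1, which encodes the C1 inhibitor. They were chosen by symbol among 50600 gene identifiers in the count table, each matched 1 identifier, and all 9 had enough reads to be tested.

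RNA was sequenced from footpad epidermal cells of female C57/B6J mice, with 4 libraries in each of 4 groups. The mice had received from 5 wk of age, for 3 wk, the purified AIN-93M diet, which is poor in ligands of the aryl hydrocarbon receptor (the AhR-poor diet, SYNTH in the labels), or this diet with 200 ppm of indole-3-carbinol, a precursor of such ligands (the I3C diet). The footpad received 50 μl of PBS, alone as vehicle or with 50 μg of the protease allergen papain, and cells were collected 6 hr later. All groups thus shared the purified base diet, the injection of PBS, the separation of the epidermis with dispase and the removal of dead cells. Mice on one diet were housed together, so diet and cage cannot be told apart, and the sequencing unit of each library is not named. Library totals ran from 22500821 to 51844375 counts, and levels are given as CPM, counts scaled by these totals after correction with TMM factors. The detection floor was set at 3 counts in a library, which allows for counting error alone. The keratinocyte genes Krt5 and Krt14 had at least 7574 and 8323 CPM in every library, as keratinocytes do, but fibroblast, endothelial, myeloid and red cell transcripts were also present and differed between groups, as described beside the complement genes below. In such bulk RNA, fewer cells of a type and less RNA per cell cannot be told apart.

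C1qa, C1qb and Serping1 were higher on the AhR-poor diet and rose after papain on both diets, and C1qc passed between diets only. C3 and C4b were higher on the AhR-poor diet and rose after papain on that diet. C1ra rose after papain on both diets, by 1.78 and 1.75 on the log2 scale, and neither it nor C1s1 passed the test between diets. Cfb stayed near the detection floor. A gene was called in the edgeR quasi-likelihood test at an adjusted p below 0.01 over 22155 genes with a log2 fold change above 1 or below -1. Papain against vehicle on the AhR-poor diet called 6 of the 9 higher, where 6.04% of all genes tested were called higher. The same comparison on the I3C diet called 4 higher, beside 3.69% of all genes. Between diets, the AhR-poor diet had 6 of the 9 higher with vehicle, beside 1.59% of all genes, and 7 with papain, beside 7.15%. No member was lower in any of these 4 comparisons by edgeR, beside 2.42%, 5.29%, 0% and 0.0993% of all genes in the order given. By DESeq2 no member was lower either, beside 527, 1207, 6 and 33 of all 22155 genes. In that direction 1 member (C1s1, between diets with papain) had an unadjusted edgeR p below 0.05. The median log2 fold change of the 9 was 1.85 and 1.75 for papain on the AhR-poor and the I3C diet and 2.53 and 2.84 for diet with vehicle and papain, counting genes without a fold as 0, against 0.00, -0.04, -0.01 and 0.01 over all genes.

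**Figure D1:**
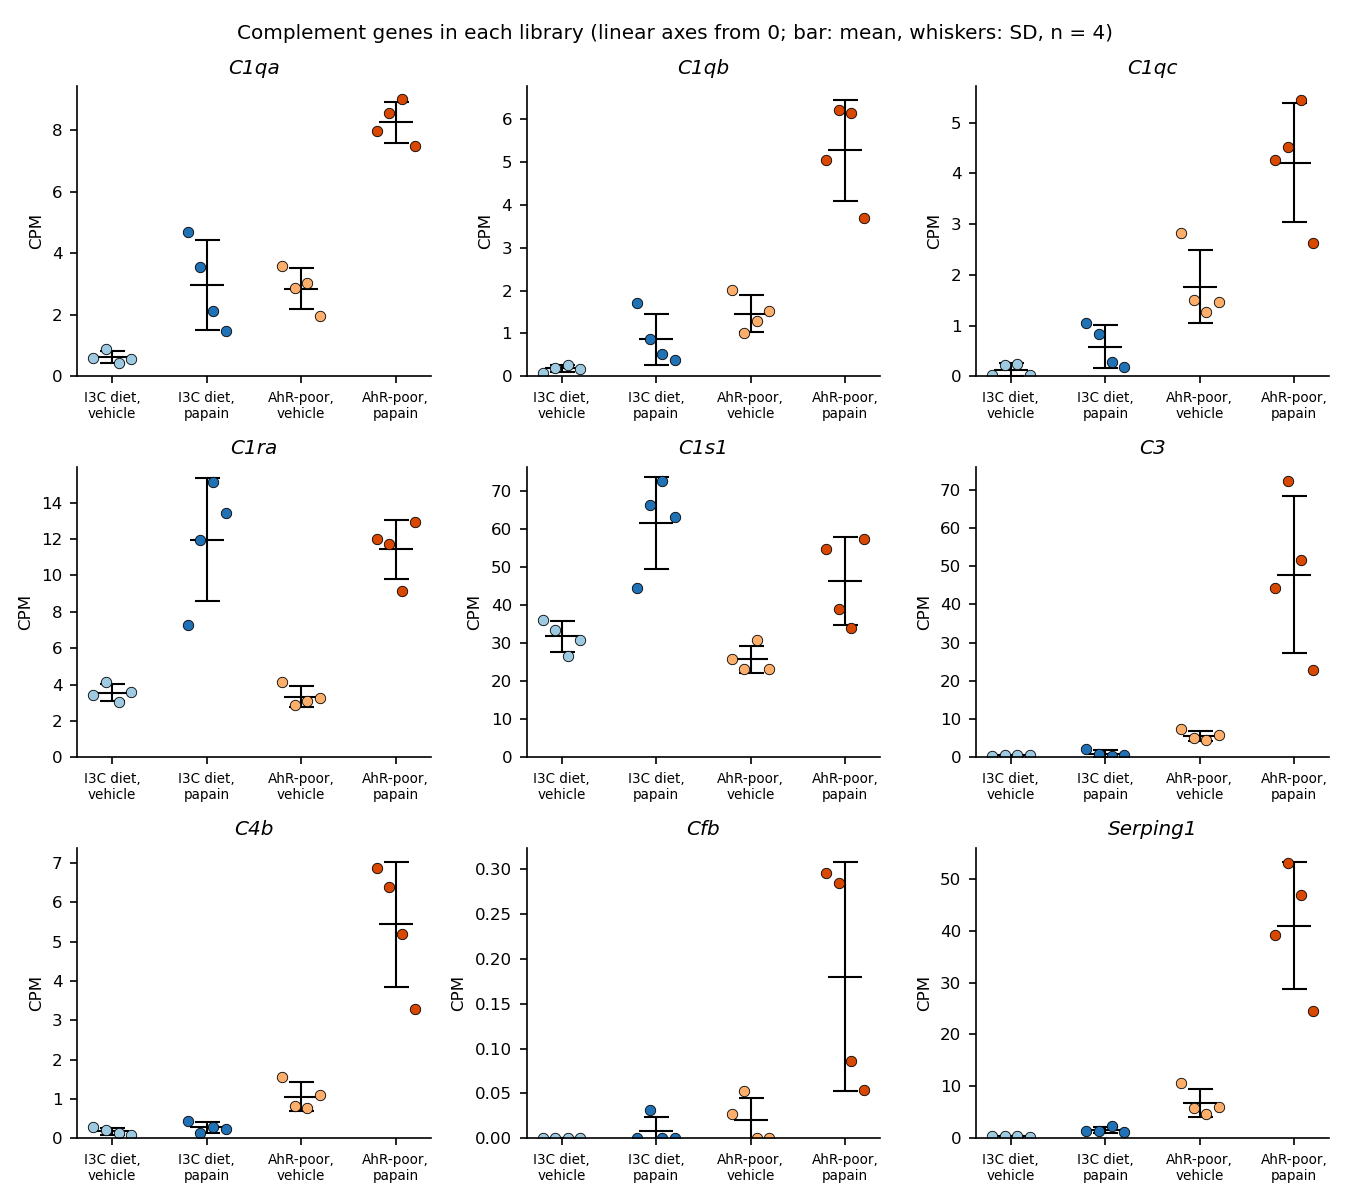
Expression of the 9 complement genes in each of 16 libraries, in CPM on linear axes that start at 0, with points for libraries, a bar for the mean and whiskers for the SD of 4 libraries. Serping1 and C3 reached 53.1 and 72.3 CPM after papain on the AhR-poor diet, and the papain libraries of C1ra and C1s1 lie above the vehicle libraries of the same diet.

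The chains of C1q are encoded by 3 adjacent genes on the minus strand of chromosome 4 (GRCm38), C1qb from 136880129 to 136886187, C1qc from 136889804 to 136893065 and C1qa from 136895917 to 136898803, with 3616 and 2851 bases between neighbours. RefSeq promoters on GRCm38.p6, which run from 250 bases before to 50 bases after the annotated start, were found for C1qb (chr4:136886151-136886450, minus strand) and C1qc (chr4:136892865-136893164, minus strand) and are shown because both genes moved with diet. C1qa had no entry. In all promoters shown, capitals mark letters that matched a motif on either strand, overlapping matches joined. The motifs were the GAS site TTCNNNGAA (8.30% of 32851 promoters of that length), the ISRE core of GAAA and GAAA around any 2 bases (3.44%), the NF-kB half-sites of GGG and CC around any 5 bases (50.8%), the AhR core GCGTG (32.4%) and, added after the sequences were seen, the C/EBP core TTGCNNAA (10.8%).
C1qb promoter: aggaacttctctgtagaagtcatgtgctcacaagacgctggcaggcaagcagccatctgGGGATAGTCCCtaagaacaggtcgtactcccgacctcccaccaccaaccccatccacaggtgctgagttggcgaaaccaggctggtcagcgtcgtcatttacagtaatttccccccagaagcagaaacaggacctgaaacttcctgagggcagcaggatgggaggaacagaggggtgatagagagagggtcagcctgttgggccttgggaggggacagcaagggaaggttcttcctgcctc
C1qc promoter: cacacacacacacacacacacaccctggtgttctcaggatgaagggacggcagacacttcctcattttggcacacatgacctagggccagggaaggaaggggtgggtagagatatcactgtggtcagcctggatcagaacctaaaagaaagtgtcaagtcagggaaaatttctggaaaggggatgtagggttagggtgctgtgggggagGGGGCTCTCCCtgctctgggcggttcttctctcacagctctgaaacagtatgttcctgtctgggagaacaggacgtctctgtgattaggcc
The capitals of both are NF-kB half-sites, whose first base lies at -191 in C1qb and at -41 in C1qc with the start base as 0, and half-sites of this kind were in about as many promoters as not. These letters describe the windows and were not tested for binding.

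C1qa was the most abundant C1q chain per length of transcript in every group. With vehicle on the I3C diet its libraries had 0.603, 0.892, 0.435 and 0.570 CPM, and after papain 4.70, 3.56, 2.11 and 1.47 CPM. The AhR-poor libraries had 3.57, 2.86, 3.02 and 1.96 CPM with vehicle and 7.98, 8.55, 9.002 and 7.48 CPM after papain. Every papain library was above every vehicle library of its diet, and the papain libraries of the I3C diet overlapped with the vehicle libraries of the AhR-poor diet. Papain raised C1qa by 1.53 (log2) in mice fed the AhR-poor diet (SE 0.28, edgeR adjusted p = 3.04e-04) and by 2.23 on the I3C diet (SE 0.32, adjusted p = 2.05e-05). Against the I3C diet, C1qa was higher on the AhR-poor diet by 2.18 with vehicle (SE 0.32, edgeR adjusted p = 5.34e-04) and by 1.48 with papain (SE 0.28, adjusted p = 8.75e-04). In each of these 4 comparisons the exact permutation test gave p = 0.0286, the smallest that 70 assignments allow.

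C1qb followed C1qa at a lower level. On the I3C diet it had 0.0861, 0.204, 0.272 and 0.180 CPM with vehicle, where the counts were 3 to 10, and 1.70, 0.866, 0.514 and 0.373 CPM after papain. Vehicle libraries of the AhR-poor diet had 2.02, 1.01, 1.29 and 1.53 CPM, and papain libraries 5.05, 6.22, 6.15 and 3.70 CPM. The 4 papain libraries of the AhR-poor diet thus stood above all others. Its log2 fold changes were 1.85 (SE 0.35, edgeR adjusted p = 3.94e-04) and 2.20 (SE 0.46, adjusted p = 9.48e-04) for papain on the AhR-poor and the I3C diet, and 2.94 (SE 0.45, adjusted p = 7.65e-04) and 2.60 (SE 0.36, adjusted p = 5.34e-05) for diet with vehicle and with papain. All 4 passed. Without T106, the highest papain library of the I3C diet, the papain value on that diet was 1.60 and the diet value with papain 3.20.

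For C1qc only the difference between diets passed. Vehicle libraries of the I3C diet had 0.0287, 0.229, 0.245 and 0.0300 CPM, with 1 to 9 counts, and papain libraries 1.05, 0.834, 0.285 and 0.174 CPM, so the treatments overlapped. The AhR-poor libraries had 2.83, 1.51, 1.26 and 1.47 CPM with vehicle and 4.26, 4.51, 5.45 and 2.64 CPM with papain, which also overlapped, through vehicle library T100 at 2.83 CPM. Diet differences were 3.65 on the log2 scale with vehicle (SE 0.59, edgeR adjusted p = 0.00150) and 2.84 with papain (SE 0.48, adjusted p = 4.71e-04). The papain values were 1.25 on the AhR-poor diet (95% interval 0.32 to 2.18, edgeR adjusted p = 0.0369) and 2.06 on the I3C diet (0.71 to 3.41, adjusted p = 0.0180), past 0.05 but not past 0.01. The I3C value passed without library T115 (edgeR adjusted p = 0.00467) and was 1.57 without T106 (adjusted p = 0.0783). Per kilobase of exon, the mean levels after papain on the AhR-poor diet were 7.94 CPM for C1qa, 4.85 for C1qb and 2.18 for C1qc. On the I3C diet with vehicle the same order held, at 0.601, 0.171 and 0.0690 CPM per kilobase.

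Of 11 macrophage markers listed, such as Mrc1 and Cd163, 5 were called higher on the AhR-poor diet with vehicle and 10 with papain, and papain called 6 higher on the AhR-poor diet and 0 on the I3C diet, by edgeR. Their summed level was 19.7 to 28.4 CPM with vehicle and 10.4 to 31.6 CPM with papain on the I3C diet. On the AhR-poor diet it was 53.7 to 75.8 CPM with vehicle and 92.5 to 305 CPM with papain. Ms4a7 and Folr2 were at or under 3 counts in every library of both I3C groups. The C1qa level was 2.11% to 3.14% of this sum with vehicle on the I3C diet and 13.3% to 17.2% after papain, whereas on the AhR-poor diet it was 3.07% to 5.61% and 2.81% to 8.09%. On the I3C diet C1qa was higher after papain while the ranges of the marker sum overlapped, and both differed between diets. Single markers in that sum moved in different directions. Csf1r had a median of 16.1 CPM with vehicle and 9.79 CPM with papain on the I3C diet, and Ccr2 0.0926 and 0.307 CPM. The median sums there were 23.7 and 18.3 CPM, so that Csf1r made up the larger part of them. On the AhR-poor diet Csf1r had 36.2 and 31.1 CPM beside median sums of 63.6 and 167 CPM. The make-up of the sum thus differed between groups, and a percentage of it does not measure C1qa per macrophage. The part of these markers in the C1q differences was not tested.

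C1r and C1s are serine proteases bound to C1q, and the mouse genes lie next to each other on chromosome 6, C1ra on the plus strand from 124512405 to 124523443 and C1s1 on the minus strand from 124530345 to 124542359, with 6901 bases between. Their promoters (chr6:124512371-124512670, plus strand, and chr6:124542310-124542609, minus strand, GRCm38.p6) are shown because they are the members that followed papain without a called diet difference.
C1ra promoter: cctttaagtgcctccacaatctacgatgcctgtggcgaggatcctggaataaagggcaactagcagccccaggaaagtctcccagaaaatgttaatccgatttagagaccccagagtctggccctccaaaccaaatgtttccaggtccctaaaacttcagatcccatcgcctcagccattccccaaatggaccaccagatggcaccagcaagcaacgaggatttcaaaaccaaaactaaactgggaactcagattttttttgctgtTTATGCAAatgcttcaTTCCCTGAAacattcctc
C1s1 promoter: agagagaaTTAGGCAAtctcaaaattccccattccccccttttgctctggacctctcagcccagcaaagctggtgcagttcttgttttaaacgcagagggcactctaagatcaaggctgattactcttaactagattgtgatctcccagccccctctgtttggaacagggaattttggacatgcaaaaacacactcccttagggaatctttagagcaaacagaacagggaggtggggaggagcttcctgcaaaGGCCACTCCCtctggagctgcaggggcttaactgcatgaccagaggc
In C1ra the capitals are a C/EBP core at 16 and a GAS site at 32, both after the start. For C1s1, which has a further annotated start not shown, they are a C/EBP core at -242 and NF-kB half-sites at 3. None of the 5 promoters shown, nor the window at the other C1s1 start, held the ISRE core or the AhR core.

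C1ra had 3.45, 4.16, 3.02 and 3.60 CPM with vehicle and 7.28, 12.0, 15.1 and 13.5 CPM with papain on the I3C diet. The AhR-poor libraries had 4.14, 2.89, 3.09 and 3.24 CPM with vehicle and 12.0, 11.7, 9.13 and 12.9 CPM with papain. Within a diet the treatments did not overlap, and within a treatment the diets did. Papain raised C1ra by 1.78 (SE 0.19, edgeR adjusted p = 1.46e-06) and by 1.75 (SE 0.19, adjusted p = 8.88e-07) (log2) in mice on the AhR-poor and the I3C diet, and the 2 responses differed by 0.03 (95% interval -0.53 to 0.59, adjusted p = 0.981). The differences between diets were -0.09 with vehicle (95% interval -0.50 to 0.32, edgeR adjusted p = 0.933) and -0.06 with papain (-0.44 to 0.32, adjusted p = 0.870). These intervals leave room for a difference of up to 0.50 on the log2 scale in the direction of the I3C diet.

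C1s1 was the most abundant member per length in every group except the AhR-poor diet with papain, where its range of 10.9 to 18.4 CPM per kilobase overlapped with the 10.58 to 22.8 of Serping1. It had 36.1, 33.5, 26.8 and 30.9 CPM with vehicle and 44.6, 66.4, 72.8 and 63.1 CPM with papain on the I3C diet. On the AhR-poor diet it had 26.0, 23.3, 30.8 and 23.2 CPM with vehicle and 54.7, 39.1, 34.0 and 57.6 CPM with papain. The papain libraries were above the vehicle libraries of their diet in all cases (exact permutation p = 0.0286 for each diet). Its log2 fold changes, 0.85 on the AhR-poor diet (SE 0.18, edgeR adjusted p = 0.00133) and 0.96 on the I3C diet (SE 0.17, adjusted p = 3.96e-04), passed the p-value but lay under the minimum fold change. The I3C value came to 1.08 without library T106 and passed there and without T108. Diet values were -0.30 with vehicle (95% interval -0.67 to 0.07) and -0.41 with papain (-0.78 to -0.04, edgeR adjusted p = 0.109). C1s1 shares 576 exonic bases with Gm16567 on the opposite strand, which held at most 10 counts in a library. The near copies C1rb and C1s2 held at most 1 and 15 counts, so shared reads, if split by the counting, could move C1ra and C1s1 little.

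C3, the component on which all complement pathways converge, lies on the minus strand of chromosome 17 from 57203970 to 57228136. Its promoter (chr17:57228087-57228386, minus strand, GRCm38.p6) is shown because C3 had the largest diet difference with papain among the 9.
C3 promoter: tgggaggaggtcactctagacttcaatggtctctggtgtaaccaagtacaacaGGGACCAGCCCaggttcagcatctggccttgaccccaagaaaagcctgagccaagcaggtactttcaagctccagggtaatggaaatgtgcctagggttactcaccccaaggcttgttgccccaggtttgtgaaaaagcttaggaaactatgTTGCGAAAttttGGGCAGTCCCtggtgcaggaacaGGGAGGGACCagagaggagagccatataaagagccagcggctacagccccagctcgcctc
The capitals mark a C/EBP core at -45 and NF-kB half-sites at -197, -33 and -10. C4b, Cfb and Serping1 had no entry.

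On the I3C diet C3 had 0.373, 0.484, 0.517 and 0.570 CPM with vehicle and 2.17, 0.770, 0.371 and 0.572 CPM with papain, where the high library was T106. The AhR-poor diet gave 7.46, 5.06, 4.43 and 5.71 CPM with vehicle and 44.3, 72.3, 51.6 and 22.8 CPM with papain. The I3C groups overlapped with each other, and every AhR-poor library was above every I3C library of either treatment. C3 was higher on the AhR-poor diet by 3.53 on the log2 scale with vehicle (SE 0.50, edgeR adjusted p = 0.00108) and by 5.59 with papain (SE 0.47, adjusted p = 2.42e-06). Papain raised it by 3.08 on the AhR-poor diet (SE 0.40, adjusted p = 3.78e-05), and the I3C value was 1.02 (95% interval -0.22 to 2.27, edgeR adjusted p = 0.197), or 0.21 without T106, when the diet value with papain was 6.40. The responses to papain differed by 2.05 (95% interval 0.51 to 3.59), which did not pass over all genes (edgeR unadjusted p = 0.0126, adjusted p = 0.254), nor did it without T106, at 2.88 (adjusted p = 0.0286).

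C4b, which encodes complement C4, lies on the minus strand of chromosome 17 from 34728380 to 34743882 and behaved like C3 at a lower level. It had 0.287, 0.204, 0.136 and 0.0900 CPM with vehicle and 0.438, 0.128, 0.285 and 0.249 CPM with papain on the I3C diet, with counts of 3 to 18 in these 8 libraries. The AhR-poor libraries had 1.55, 0.821, 0.766 and 1.10 CPM with vehicle and 6.87, 6.39, 5.19 and 3.29 CPM with papain, so that the I3C groups overlapped and each AhR-poor group stood apart. Its log2 fold change between diets was 2.53 with vehicle (SE 0.39, edgeR adjusted p = 7.67e-04) and 4.26 with papain (SE 0.35, adjusted p = 2.53e-07), and papain on the AhR-poor diet gave 2.36 (SE 0.30, adjusted p = 9.50e-06). On the I3C diet the value for papain was 0.63 (95% interval -0.31 to 1.57, edgeR adjusted p = 0.303), or 0.30 without T106. The difference of the responses, 1.73 (0.57 to 2.89), had an unadjusted p of 0.00582 and did not pass (edgeR adjusted p = 0.198). C4a, a near copy annotated as a processed transcript, had 57 to 173 counts and differed between diets by -0.15 and -0.16 with vehicle and papain (edgeR adjusted p = 0.821 and 0.581), and reads common to both genes could have been split by the counting.

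Cfb encodes factor B, the protease of the alternative pathway convertase, on chromosome 17 from 34856374 to 34862518. It had no count in any vehicle library on the I3C diet and 1 count in all in the papain libraries. On the AhR-poor diet it had 1, 2, 0 and 0 counts with vehicle and 12, 15, 2 and 2 counts with papain, that is 0.295, 0.285, 0.0866 and 0.0544 CPM. With papain, the count ratio of the AhR-poor to the I3C diet was 29.8 after scaling (95% counting interval 4.97 to 1216), and edgeR called it (adjusted p = 0.00829). The counting interval pools the reads of a group and leaves out the spread between mice. The call was lost without any 1 of T104, T105, T106, T113, T114 and T115 (adjusted p up to 0.0314). It was also lost with DESeq2 (adjusted p = 0.0152) and with only the 8 libraries compared (edgeR adjusted p = 0.0101). Papain on the AhR-poor diet gave a ratio of 10.3 (3.20 to 52.5) that did not pass (edgeR adjusted p = 0.0134). No fold is given for papain on the I3C diet or for diet with vehicle, where both groups were at or under 3 counts. Of its 2825 exonic bases, 2246 are shared on the same strand with Gm20547, which had 0 counts in every library, and whether reads on these bases were counted for Cfb is not known.

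Serping1 was the member with the largest diet difference with vehicle. The C1 inhibitor it encodes binds and inactivates C1r and C1s, and the gene lies on the minus strand of chromosome 2 from 84765387 to 84775444. On the I3C diet it had 0.488, 0.408, 0.408 and 0.240 CPM with vehicle and 1.39, 1.35, 2.40 and 1.17 CPM with papain. The AhR-poor libraries had 10.7, 5.85, 4.60 and 6.11 CPM with vehicle and 39.2, 53.1, 46.9 and 24.6 CPM with papain. It was the only member whose 4 groups did not overlap at all. On the AhR-poor diet Serping1 was higher by 4.12 on the log2 scale with vehicle (SE 0.37, edgeR adjusted p = 3.99e-05) and by 4.70 with papain (SE 0.32, adjusted p = 2.23e-07). Papain raised it by 2.59 on the AhR-poor diet (SE 0.28, edgeR adjusted p = 5.39e-06) and by 2.01 on the I3C diet (SE 0.41, adjusted p = 0.00106), and these responses differed by 0.58 (95% interval -0.52 to 1.68, adjusted p = 0.665). Per kilobase, Serping1 went from 0.166 CPM with vehicle on the I3C diet, where C1s1 had 10.2, to 17.6 CPM with papain on the AhR-poor diet, where C1s1 had 14.8.

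**Figure D2:**
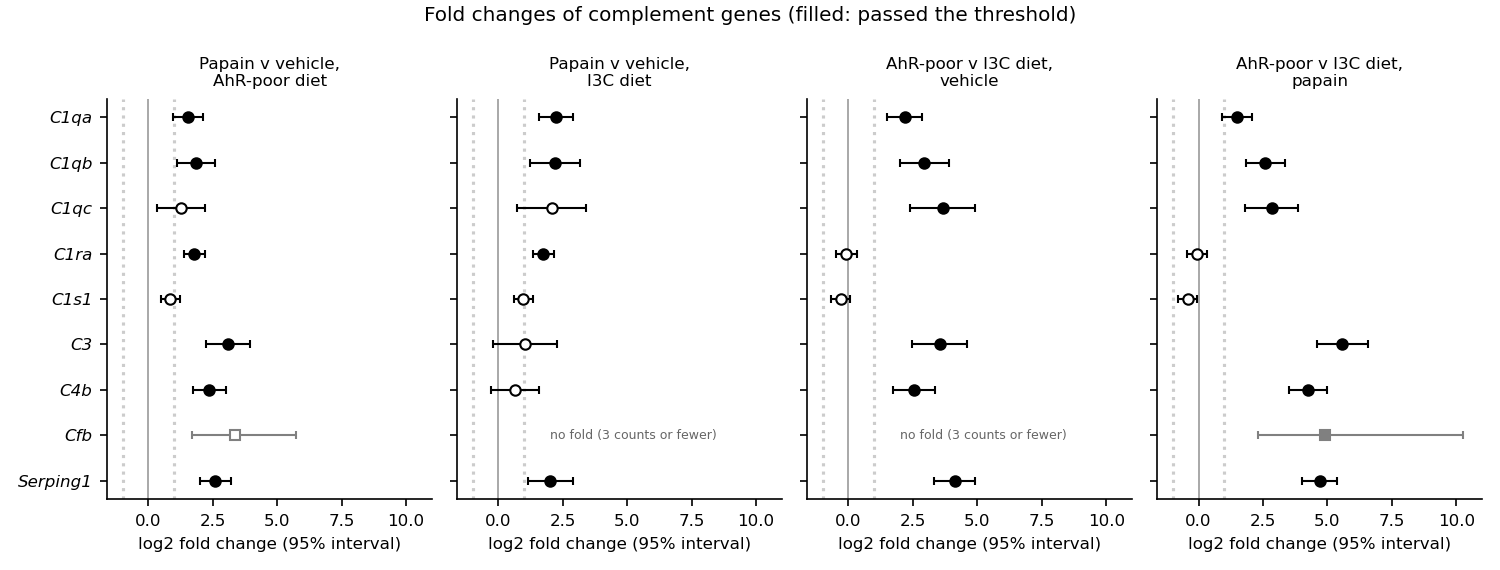
Log2 fold changes of the 9 genes in 4 comparisons, with 95% intervals, where filled symbols passed the test and dotted lines mark the minimum fold change of 1. Gray squares are count ratios with counting intervals for Cfb. C1ra and C1s1 lie between -0.41 and -0.06 in the diet comparisons, and C3 reached 5.59 in the diet comparison with papain.

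Markers of dermal cells differed between diets alongside C3, C4b and Serping1. Of 12 fibroblast markers, among them Col1a1 and Dcn, edgeR called 10 higher on the AhR-poor diet with vehicle and 10 with papain, and papain called 11 higher on the AhR-poor diet but 1 lower and 0 higher on the I3C diet. Their sum without Thy1, which T cells also express, was 20.3 to 25.0 CPM with vehicle and 12.0 to 26.0 CPM with papain on the I3C diet, and 115.2 to 201 CPM with vehicle and 297 to 720 CPM with papain on the AhR-poor diet. Pdgfrb and Mfap5 were at or under 3 counts in all papain libraries of the I3C diet. The level of C3 was 1.74% to 2.54% and 3.08% to 8.34% of this sum on the I3C diet with vehicle and papain, and 3.71% to 4.22% and 7.68% to 10.04% on the AhR-poor diet. C4b was 0.360% to 1.34% and 0.599% to 2.37% of it on the I3C diet and 0.665% to 0.797% and 0.776% to 1.28% on the AhR-poor diet, so that these ranges overlapped across the diets. Serping1 was 0.960% to 2.27% of the sum with vehicle on the I3C diet, against 5.34% to 19.9% with papain there and 3.99% to 5.32% and 7.01% to 8.27% on the AhR-poor diet. C3 was also set beside the macrophage marker sum. It was 1.71% to 2.62% and 2.33% to 6.87% of that sum on the I3C diet with vehicle and papain. On the AhR-poor diet it was 7.96% to 9.85% and 23.7% to 29.5%.

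All 8 endothelial markers and all 5 red cell genes were also called higher on the AhR-poor diet with either treatment, the red cell sum running from 0.258 to 17.2 CPM on the I3C diet, where T106 was highest, and from 73.2 to 1254 CPM on the AhR-poor diet. All 10 neutrophil markers were called higher after papain on the AhR-poor diet and 4 on the I3C diet, with sums of 1.64 to 4.83 and 51.2 to 93.3 CPM with vehicle and papain on the I3C diet and 10.003 to 12.6 and 111.5 to 778 CPM on the AhR-poor diet. The other 6 neutrophil markers were not called on the I3C diet. There Ly6g had 0 counts with papain and Clec4d a median of 0.304 CPM, against 51.4 CPM for Clec4d with papain on the AhR-poor diet. The I3C papain sum was therefore not shared by all of these markers. Keratinocyte markers summed to 41354 to 67328 CPM over all libraries, and 0 of 10 were called between diets by edgeR. The part of these cells in the diet differences of C3, C4b, Serping1 and the C1q genes was not tested. The fibroblast sums did not overlap between diets with either treatment. The C1ra levels overlapped with both, and the cells that made C1ra RNA were not tested.

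**Figure D3:**
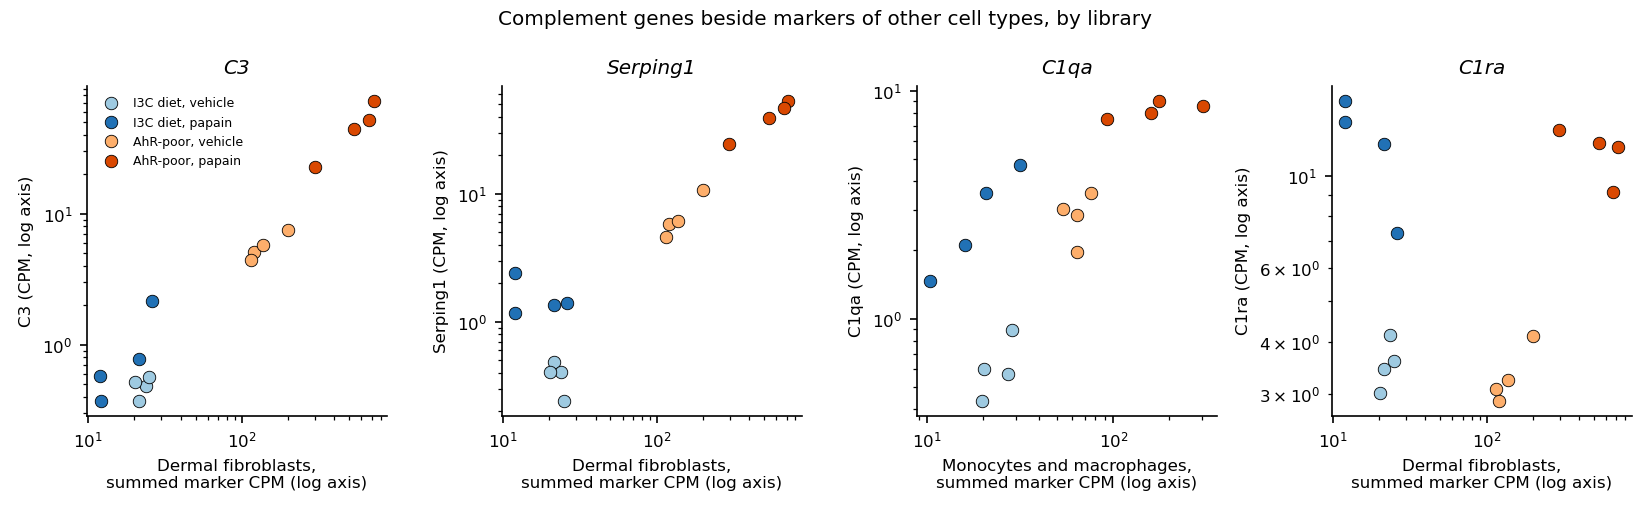
Level of C3, Serping1, C1qa and C1ra in each library (CPM, log axis) against the summed CPM of fibroblast markers without Thy1 or macrophage markers (log axis), with colour for the group. C3 and Serping1 lie highest where the fibroblast sum is highest, in the AhR-poor papain libraries at 297 to 720 CPM, while C1ra separates by treatment at low and high sums alike.

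The interaction of diet and papain called 0 of the 9 genes by edgeR and 0 by DESeq2. Over all 22155 genes edgeR called 4 higher (0.0181%) and 0 lower, whereas DESeq2 called 200 higher and 5 lower. The edgeR number over all genes also depended on single libraries, with 95 higher without T112 and 30 without T106. At an unadjusted edgeR p below 0.05 the interaction had 2 members, C3 and C4b, both with a larger papain response on the AhR-poor diet. For C1qa, C1qb and C1qc the interaction values were -0.70, -0.35 and -0.81, with 95% intervals of -1.58 to 0.18, -1.53 to 0.84 and -2.45 to 0.83. The interval of C1qc therefore held responses that differed by more than 1 on the log2 scale toward a larger response on the I3C diet.

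Other genes of the system were taken from a list of 49 found in the table, of which 35 had enough reads. Papain on the AhR-poor diet called 11 of the 35 higher and 0 lower, beside 6.04% and 2.42% of all genes. Papain on the I3C diet called 3 higher and 2 lower, beside 3.69% and 5.29%. The AhR-poor against the I3C diet called 1 higher with vehicle, beside 1.59%, and 13 with papain, beside 7.15%. The 2 lower on the I3C diet and the 1 higher with vehicle were near these shares. The same shares stand beside the counts of receptors here and of cell markers and induced genes elsewhere. The medians of the 35 were 0.58, 0.00, 0.14 and 0.67 on the log2 scale in these 4 comparisons, with genes at the floor at their bound, and those of all genes were within 0.04 of 0. Of 10 receptors tested, 6 were higher after papain on the AhR-poor diet and 8 were higher than on the I3C diet with papain. C5ar1, the receptor for the C5a fragment, had 25.1 CPM on average after papain on the AhR-poor diet against 0.592 with vehicle, a log2 fold change of 5.40 (SE 0.77). C3ar1, the C3a receptor, differed by 4.43 between diets with papain and by 2.46 after papain on the AhR-poor diet, and C5ar2 by 3.81 between diets with papain. Integrin chains of complement receptors also differed between diets with papain, being higher on the AhR-poor diet, Itgb2 by 3.75, Itgam by 1.77 and Itgax by 1.72, as were Cd93 by 3.73 and the macrophage receptor Vsig4 by 3.43. Itgam shares 3450 exonic bases with Gm49368 on the same strand, and the calls of Itgax and Vsig4 were lost without T104, T105, T107, T113 or T114, for Vsig4 also T115, with an adjusted p of up to 0.0195 and 0.0224. The 5 counts of Vsig4 with papain on the I3C diet lay in 1 library, T106, without which that group was at 0 and the fitted value 6.88, which is no bound. Without T106 the diet values with papain were 7.75 for C5ar1, 5.58 for C5ar2, 5.24 for C3ar1 and 2.35 for Itgax. C5ar1, C3ar1, Itgam and Itgb2 are known as genes of leukocytes, and the median sums of neutrophil and macrophage markers were 10.8 and 63.6 CPM with vehicle and 472 and 167 CPM with papain on the AhR-poor diet, against 67.8 and 18.3 CPM with papain on the I3C diet. Their part in the receptor differences was not tested, and the neutrophil marker Ly6g had 0 counts with papain on the I3C diet.

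The scavenger receptor collectin Colec12 differed between diets by 3.83 with vehicle (SE 0.59) and 5.66 with papain (SE 0.59), higher on the AhR-poor diet, from 7 and 5 counts in all on the I3C diet, and these values were 5.03 without T109 and 7.20 without T106. Among regulators, Cpn1, a subunit of the carboxypeptidase that inactivates C3a and C5a, rose by 2.17 on the AhR-poor and 1.76 on the I3C diet after papain, with diet differences of -0.48 and -0.07 with vehicle and papain that did not pass. Of 6 membrane regulators tested, 0 were called higher by edgeR in any of the 4 comparisons and 1, Cd46, was called lower after papain on the I3C diet, by 1.17 on the log2 scale (SE 0.24, edgeR adjusted p = 6.50e-04), where its value on the AhR-poor diet was -0.69 (adjusted p = 0.0263). Cd59a, which encodes an inhibitor of the membrane attack complex, had values of -0.99 and -0.98 for papain on the AhR-poor and the I3C diet (edgeR adjusted p = 2.71e-06 and 1.56e-06), just under the minimum fold change, and is named here after its values were seen.

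Properdin (Cfp), which stabilises the alternative convertase, was 1.91 higher on the AhR-poor diet with papain (SE 0.22). Masp1, a protease of the lectin pathway, rose by 3.02 after papain on the AhR-poor diet, and its count ratio between diets with papain was 17.1 (95% counting interval 7.07 to 54.1). Colec10 and the terminal component C7 had 0 counts in all I3C libraries and were at least 6.03-fold and 3.47-fold higher on the AhR-poor diet with papain, bounds taken at 3 counts per library, and Colec10 rose by 2.64 after papain on the AhR-poor diet, a call lost without T101 or T105 (adjusted p up to 0.0125). Hc, the mouse C5 gene, had a count ratio of 15.9 after papain on the AhR-poor diet (5.12 to 79.8), from 3 counts with vehicle. Calr, a chaperone that also binds C1q, rose by 1.12 after papain on the I3C diet, and its value on the AhR-poor diet, 0.95, lay under the minimum fold change. The terminal component C9 fell by 1.38 on the log2 scale after papain on the I3C diet, and its value on the AhR-poor diet, -0.93 (edgeR adjusted p = 0.00469), lay under the minimum fold change. C1rl, a relative of C1r, rose by 1.14 on the AhR-poor and 1.75 on the I3C diet after papain, and its diet values were 0.21 and -0.40.

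**Figure D4:**
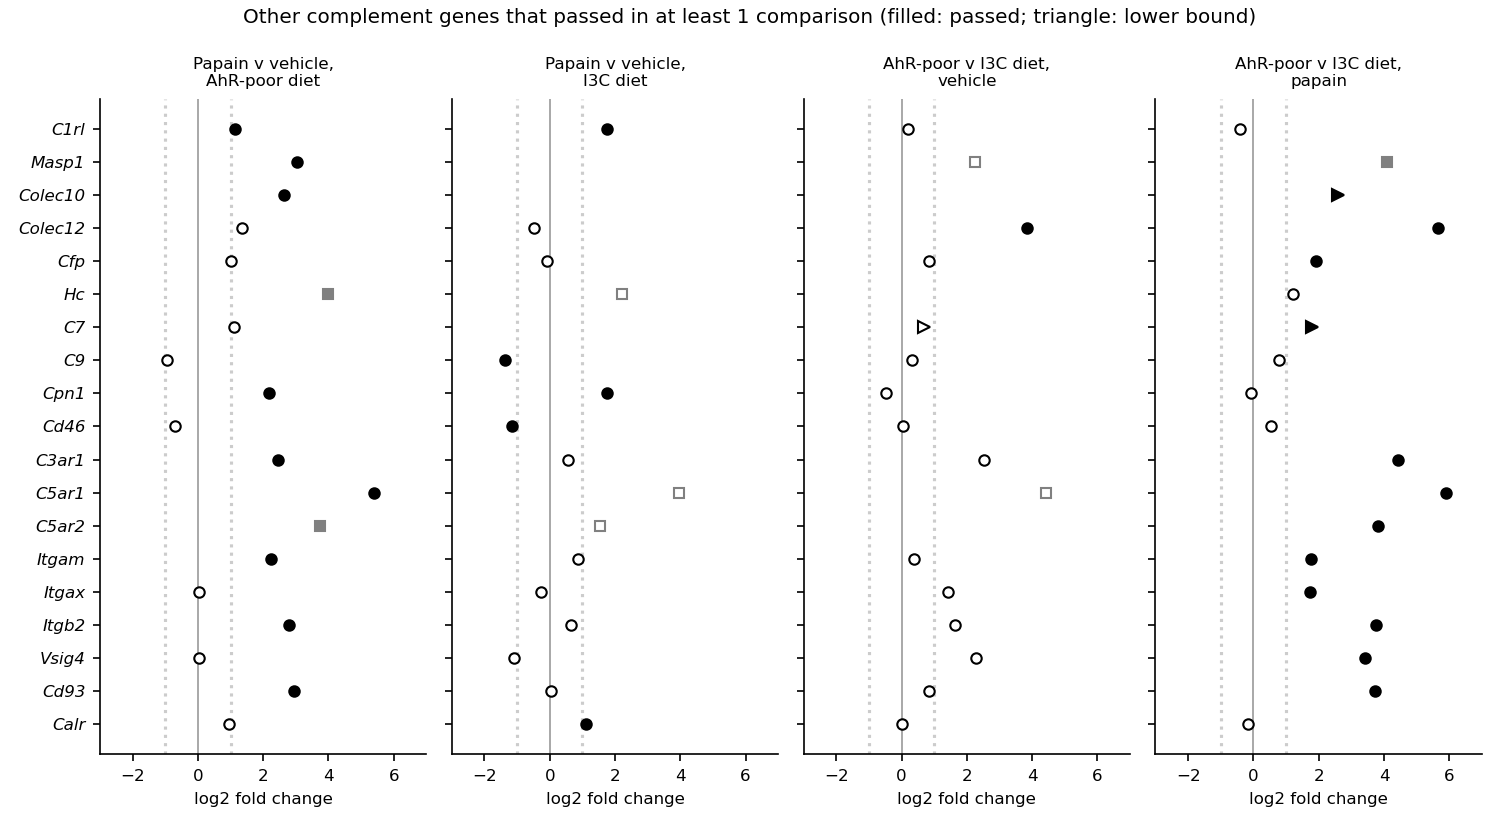
Log2 fold changes of the 19 other complement genes called in at least 1 of 4 comparisons, with filled symbols for calls, squares for count ratios where every library of a group had at most 3 counts, and triangles for lower bounds. A missing symbol means that no fold could be given. Most filled symbols lie in the comparison of diets with papain (13) and of papain with vehicle on the AhR-poor diet (11).

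As a description, the log2 CPM of each member was correlated over the 16 libraries with 13007 genes of at least 1 CPM on average. The libraries of a group share diet and treatment, so that each r mostly reflects the 4 group levels. C3 was most like Lyz2 (r = 0.991), Mrc1 (0.989) and Cybb (0.988), and Serping1 most like Nid1 (0.976), Cd248 (0.976) and Olfml3 (0.972). C4b was most like Adgrd1 (0.984), Col4a1 (0.983) and Mcpt4 (0.970). For C1qa the nearest were Lilr4b (0.942), Acod1 (0.942) and Npr1 (0.939), for C1qb Nid1 (0.975), Lilr4b (0.968) and Lrg1 (0.965), and for C1qc Nid1 (0.956), Ace (0.953) and F13a1 (0.943). C1ra and C1s1 had other neighbours, Tnfrsf1a (0.988), Lgmn (0.982) and Efna5 (0.976) for C1ra and Glt1d1 (0.962), Cdh3 (0.959) and Mbd2 (0.959) for C1s1. Cfb, mostly at 0 counts, had Hilpda (0.945), Ninj1 (0.938) and Cxcr4 (0.931). Among members, r was 0.969 for C3 with C4b, 0.968 for C1qb with C1qc and 0.891 for C1ra with C1s1, but 0.273 for C3 with C1ra and -0.0992 for C3 with C1s1.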

How the data were processed

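RNA-seq libraries were analysed from footpad epidermal cells of 16 mice, 1 library a mouse and 4 a group, grouped by the diet and treatment in the labels. The deposited table held raw read counts per gene, which the authors made from stranded mRNA libraries. FastQC, STAR, DESeq2 and the mm10 build are named in the submitters' processing notes, and the counting tool, its strand setting and the annotation are not given in the sources used here. Of 50600 identifiers, 50376 were matched to a symbol. The members and lists were chosen with earlier results of these data known, and no count of them is independent support. Some listed genes are not reported here and enter no list count or sum.

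Genes with at least 10 counts in all were fitted with edgeR 4.0.16 in R 4.3.3 (TMM factors, robust quasi-likelihood, 1 fit over 4 groups), with Benjamini-Hochberg adjustment over 22155 genes. A call required both a log2 fold change beyond 1 and an adjusted p under 0.01. The comparisons share groups, so each group enters a papain and a diet comparison. Single genes were also given a two-sided exact permutation test of 4 against 4 libraries, whose smallest p is 0.0286. If no library in a group exceeded 3 counts, the ratio of counts with its counting interval or a bound is given. Such intervals pool reads and leave out the spread between mice, so they are too narrow. All 9 members were named with every library, other complement genes where called at least once, and for likeness the 3 genes with the highest r. Alternatives were RLE or no scaling factors, other low-count minimums, DESeq2 1.42.0, only the 8 libraries compared, other thresholds and each library left out. The procedure was tested on simulated data, where 199 and 200 of 200 genes changed by 2 on the log2 scale were recovered for papain on the AhR-poor diet and 196 and 195 for the interaction. The changed genes were drawn above a minimum average count, which leaves out Cfb. Their spread was the trend over all genes, not that of each gene. This recovery therefore does not measure the power for the 9 members. Libraries of one group differed beyond sampling noise in every pair, so none was a duplicate. Levels between genes were compared per kilobase of exon (GRCm38, GENCODE models).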

Additional observations from a re-analysis of the deposited data

Results flagged for a closer look

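A gap test of the highest and lowest library in each of 36 groups (9 genes in 4 groups of 4 libraries) passed Dixon's 95% critical value for 2 groups, where chance passes about 1 in 20. C1qc in vehicle library T100 of the AhR-poor diet had 2.83 CPM, with a gap of 0.842 of the group's range. Cfb in papain library T113 of the I3C diet had 0.0321 CPM, which is 1 count where the other 3 libraries had 0.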

How the results depend on the processing

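No paired analysis was possible because no replicate code occurs in more than 1 group. Requiring at least 10 counts in every library kept 4 of the 9 members (C1qa, C1ra, C1s1 and C3) and called 3, 2, 2 and 2 higher for papain on the AhR-poor diet, papain on the I3C diet, diet with vehicle and diet with papain. Over all 13146 genes kept, 651, 562, 58 and 556 were called higher in this order. With each library left out the counts of members were 6 to 7, 4 to 5, 6 to 6 and 6 to 7, with 0 to 0 lower and 0 to 0 for the interaction. DESeq2 called 6, 5, 6 and 6 members higher, beside 1393, 908, 595 and 1720 of all 22155 genes. Uncalled values near 0 changed sign: the diet value of C1ra with papain was 0.053 with library size only and -0.23 to 0.078 with a library left out, and the interactions were -0.59 to 0.26 for C1qb, -0.13 to 0.18 for C1ra and -0.23 to 0.020 for C1s1. C1qc after papain passed on the AhR-poor diet with only the 8 libraries compared (edgeR adjusted p = 0.00488) and on the I3C diet with DESeq2 (adjusted p = 8.27e-04), and Cfb after papain on the AhR-poor diet without T112 (edgeR adjusted p = 0.0068). Of 934 results for single members, 909 kept direction and side of the threshold. For the other complement genes, alternatives were chosen after seeing the data, and the 1 called higher between diets with vehicle (Colec12) became 0 with at least 10 counts in every library, 6 with DESeq2 and 2 without T106, T112 or T115. Over all genes that comparison called 352 higher with edgeR, 595 with DESeq2 and 193 without T110. The causes were not tested. The low counts of Cfb, C1qc and C4b on the I3C diet limit what can be seen there.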

Other observations

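C1rl lies 1761 bases from C1ra on the same strand of chromosome 6, and C1rl, C1ra and C1s1 were each higher in every papain library than in every vehicle library of the same diet, while none was called between diets by edgeR. These neighbours were noticed after their values were seen. Papain and vehicle libraries were separated in the same way for genes elsewhere, such as C1qa, Serping1, Cpn1 and Calr. How many of all genes do so was not counted, so the separation is not read as particular to these neighbours.

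Genes known to be induced by interferon, such as Ifit1 and Isg15, had 8 of 9 called higher after papain on the AhR-poor diet and 4 higher and 1 lower on the I3C diet, by edgeR, with median log2 fold changes of 4.81 and 2.97 (2.89 if bounds replace fitted values near the floor). The summed level of the 9 moved differently from these medians. On the I3C diet it was 165.526 to 442.168 CPM with vehicle and 101.973 to 155.442 CPM with papain, lower and without overlap. On the AhR-poor diet it was 104.141 to 310.041 and 151.982 to 512.612 CPM, which overlapped. Irf1 had medians of 227.152 and 67.5309 CPM with vehicle and papain on the I3C diet, where Ifit1 had 0.0586 and 1.0764 CPM. Between diets 0 of the 9 were called with vehicle and 4 with papain. Of 10 genes of the NF-kB and IL-6 family, 4 were called higher after papain on each diet. Mast cell markers had 5 of 6 called higher on the AhR-poor diet with papain and 1 with vehicle, adipocyte markers 2 of 4 tested and 0, T cell markers 1 of 8 and 0, and Langerhans cell markers 2 of 8 and 0. The Langerhans cell medians between diets were 1.20 with papain and 1.21 with vehicle, and 7 and 5 of the 8 had an edgeR adjusted p below 0.05. Their sums did not overlap, at 406 to 733 CPM (I3C) and 977 to 1129 CPM (AhR-poor) with vehicle. With papain they were 579 to 926 CPM and 1081 to 1272 CPM. Markers in these sums moved in different directions after papain. Cd24a had medians of 133 and 344 CPM with vehicle and papain on the I3C diet, and 139 and 282 CPM on the AhR-poor diet. Cd207 had 17.6 and 11.6 CPM, and 52.6 and 35.2 CPM. Papain called 1 of the 8 higher and 1 lower on the I3C diet, and 0 on the AhR-poor diet, by edgeR.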
